A study of Mus musculus with 6 samples.

Results

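The miR-34 family was followed in mouse nephron progenitor cells, the cells of the outer kidney that give rise to nephrons. Its members were taken by name as 5 mature miRNAs (mmu-miR-34a-5p, mmu-miR-34b-5p, mmu-miR-34b-3p, mmu-miR-34c-5p and mmu-miR-34c-3p, written below without the species prefix), and all 5 were found among the 1034 mature miRNAs of the deposited table. The cells came from CD1 mice, with no mutation or treatment named in the labels, at the embryonic stage E14.5 (3 libraries) or on the day of birth (P0, 3 libraries). Each library was a pool of kidneys from 1 litter, digested briefly and enriched on magnetic beads for cells bearing the surface integrin Itga8. The study compared the small RNA of the younger and the older progenitors. Values are TPM, a level corrected for feature length and library total. miRNAs offer no defining marker of nephron progenitors in this table, so the labelled cell type could not be checked here.

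Each miRNA hairpin can yield a mature strand from its left (5p) and its right (3p) arm, and bases 2 to 8 of a mature strand, the seed, direct its pairing with target mRNAs. The miR-34 genes are direct transcriptional targets of the tumour suppressor p53, and their 5p strands repress mRNAs of cell-cycle and survival genes. Mir34a has a transcript of its own, whereas Mir34b and Mir34c are made from a shared transcript, and miR-34b/c act together with the related miR-449 miRNAs in cells with many motile cilia. Loss of p53 from nephron progenitors is known to impair kidney growth in mice. No mRNA was measured in these libraries, so p53 activity and targets are not described.

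The mature sequences are shown because their seeds group the members, with the seed in capitals (RefSeq, GRCm38.p6, 5′ to 3′). They were available for 885 of the 1034 miRNAs, including the members below, while miR-34c-5p is given by name and position.
miR-34a-5p: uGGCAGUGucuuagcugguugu
miR-34b-5p: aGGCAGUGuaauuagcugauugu
miR-449a-5p: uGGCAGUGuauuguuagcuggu
miR-449c-5p: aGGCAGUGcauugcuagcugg
miR-34b-3p: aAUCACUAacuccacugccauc
miR-34c-3p: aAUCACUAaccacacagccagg
The first 4 share a seed that no other sequence of the 885 had. miR-34c-5p has no sequence among the 885, so its seed could not be compared here. miR-34b-3p and miR-34c-3p share a different seed, found in no other of the 885, and are identical at 17 of 22 positions, the first 10 among them.

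Mir34a lies on the plus strand of chromosome 4 (miR-34a-5p at chr4:150068473-150068494, build mm10, which is GRCm38), and its mature 5p strand overlaps no other gene of the GENCODE M21 annotation. Mir34b and Mir34c lie 451 bases apart on the minus strand of chromosome 9, inside an intron of Btg4, which is transcribed from the opposite strand. Mir34b comes first in the direction of transcription (miR-34b-5p at chr9:51103610-51103632, miR-34b-3p at chr9:51103574-51103595). Mir34c follows it (miR-34c-5p at chr9:51103076-51103098, miR-34c-3p at chr9:51103044-51103065).

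Reads recovered from the TPM values numbered 2649506 to 23691028 per library at E14.5 and 21508833 to 34934526 at P0, and the 2 shallowest libraries were both from E14.5. P0 replicate 1 stood apart from the other P0 libraries on the first principal component of 670 miRNAs, at 1.14 against 33.2 and 33.5, with the E14.5 libraries between −26.2 and −16.2. Where leaving it out changed the call of a family member or relative in TPM, both values are given. The 10 most abundant miRNAs took 34.6% to 38.7% of the TPM at E14.5 and in P0 replicate 1, and 58.9% and 61.1% in P0 replicates 2 and 3. Stage differences are given as a log2 difference, P0 minus E14.5, with the median of all 670 tested miRNAs for comparison. That median was −1.20 on the TPM scale and −0.15 once a median-of-ratios scaling was applied, which sets the libraries to a common level by the typical miRNA. In these bulk samples, fewer cells of a type and less RNA per cell cannot be told apart.

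Of the miR-34b/c strands, 3 of 4 were called lower at birth in TPM, while miR-34a-5p varied among the P0 litters. In TPM, 3 of the 5 members fell by P0 (miR-34b-5p, miR-34c-5p and miR-34c-3p), against 32.8% of all tested miRNAs called lower. The stages did not overlap for 4 of the 5, the miR-34b/c strands, against 46.4% of all tested miRNAs lower without overlap. After median-of-ratios scaling, only miR-34b-5p was called, against 5.22% of all tested miRNAs called lower, and 3 of the 5 were lower without overlap, against 19.6%. The median log2 difference of the 5 members was −2.22 in TPM and −0.93 after scaling. Over all miRNAs, limma called 9 higher and 220 lower in TPM, and 38 higher and 35 lower after scaling. Without P0 replicate 1 the scaled calls were 158 higher and 168 lower.

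**Figure D1:**
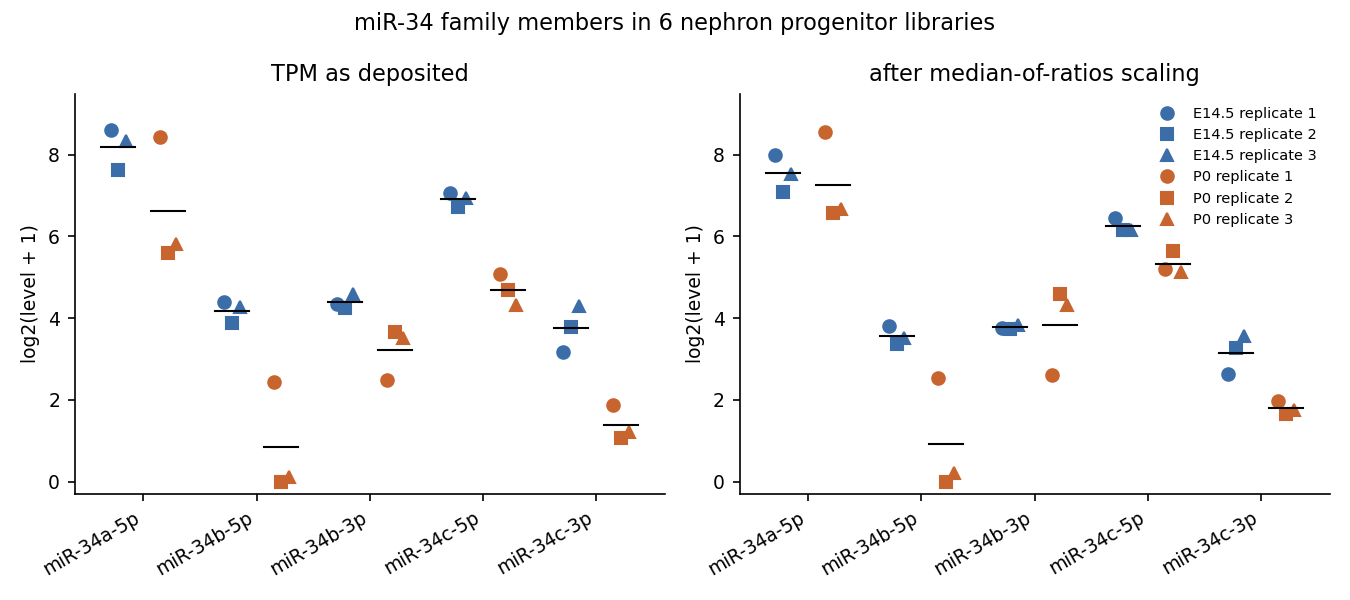
Level of each miR-34 member in each library on a log2(level + 1) axis, as deposited TPM (left) and after median-of-ratios scaling (right), with symbols for replicates and a bar at the mean of the 3 libraries of a stage. miR-34a-5p of P0 replicate 1 lies among the E14.5 libraries in TPM, and miR-34b-5p of P0 replicates 2 and 3 lies at or near 0 under both scalings.

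miR-34a-5p, the family member best known as a p53 effector, was the most abundant member in every library. The E14.5 libraries 1 to 3 held 391, 198 and 323 TPM of it, and the P0 libraries 1 to 3 held 344, 47.3 and 55.3 TPM. P0 replicate 1 thus lay within the E14.5 range and the other P0 libraries below it, so the stages overlapped. Among the 1034 miRNAs it ranked 137, 178 and 160 at E14.5 and 110, 206 and 199 at P0. The mean level was 304 ± 97.8 TPM at E14.5 against 149 ± 169 TPM at P0 (SD, n = 3), and the log2 difference of −1.58 (SE 0.74) did not pass the threshold (limma adjusted p = 0.104). After scaling P0 replicate 1 was the highest library, with 376 scaled TPM against 256, 135 and 185 at E14.5, and the log2 difference was −0.28 (SE 0.60, limma adjusted p = 0.768). Without P0 replicate 1 it fell by P0 in TPM, with a log2 difference of −2.49 (limma adjusted p = 0.000216), where 53% of all tested miRNAs were called lower. With scaling and without that library it did not pass, at −0.93 (limma adjusted p = 0.0587), where 24.4% were called lower. Over its 17 alternatives the limma adjusted p ran from 0.000216 to 0.863.

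The other strand of the same hairpin, miR-34a-3p, was scarce. It had 7, 58 and 12 reads in the E14.5 libraries, 76 reads in P0 replicate 1 and 0 reads in P0 replicates 2 and 3. Its share of the hairpin's reads was 0.673%, 1.23% and 0.722% at E14.5 and 0.632% in P0 replicate 1. The 0 counts in P0 replicates 2 and 3 allow shares of up to 0.285% and 0.253%, below the share in each of the other libraries. Its log2 difference was −1.28 (SE 0.59, limma adjusted p = 0.1004) in TPM and −0.81 (SE 0.59, limma adjusted p = 0.351) after scaling. Without P0 replicate 1 it was called lower in TPM, at −1.85 (limma adjusted p = 0.00863), where 53% of all tested miRNAs were called lower. With scaling and without that library it was called at −1.41 (limma adjusted p = 0.0253), where 24.4% were called lower. Over its alternatives the limma adjusted p ran from 0.00863 to 0.811.

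miR-34c-5p, the main product of Mir34c, was the second most abundant member. It had 133, 104 and 122 TPM in E14.5 replicates 1 to 3 and 32.7, 24.7 and 18.9 TPM in P0 replicates 1 to 3. The 3 P0 libraries were close together and all below the E14.5 libraries, P0 replicate 1 included. The mean was 119.7 ± 14.4 TPM at E14.5 against 25.4 ± 6.95 TPM at P0 (SD, n = 3), 4.71-fold higher at E14.5. The log2 difference was −2.22 (SE 0.55, limma adjusted p = 0.0104). After scaling the stages still did not overlap, with 86.7, 70.8 and 70.1 scaled TPM at E14.5 and 35.8, 48.9 and 34.3 at P0. The scaled log2 difference of −0.93 (SE 0.46) did not pass the threshold (limma adjusted p = 0.182). In TPM the call was also lost without E14.5 replicate 1 (limma adjusted p = 0.0528) or E14.5 replicate 3 (0.0642), within a range of 0.000270 to 0.237 over 16 alternatives.

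miR-34c-3p, its partner strand, had 7.95, 12.7 and 18.8 TPM at E14.5 and 2.67, 1.08 and 1.30 TPM at P0. These values rest on 21, 299 and 96 reads at E14.5 and 93, 24 and 28 reads at P0. All P0 libraries were below all E14.5 libraries, as for miR-34c-5p. The mean was 13.1 ± 5.44 TPM at E14.5 against 1.69 ± 0.863 TPM at P0 (SD, n = 3). The log2 difference was −2.37 (SE 0.58, limma adjusted p = 0.0101) in TPM and −1.36 (SE 0.53, limma adjusted p = 0.105) after scaling. Leaving out E14.5 replicate 3 also ended the call in TPM (limma adjusted p = 0.0574), within a range of 0.00175 to 0.147 over 16 alternatives. With scaling and without P0 replicate 1 it was called, at −1.45 (limma adjusted p = 0.0423), where 24.4% of all tested miRNAs were called lower.

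miR-34b-5p carried the same seed as miR-34a-5p and had the largest fold change of the 5 members. It had 19.9, 13.6 and 18.3 TPM in E14.5 replicates 1 to 3, from 55, 337 and 98 reads. At P0 it had 4.39 TPM in replicate 1, from 160 reads, 0 reads in replicate 2, which allows up to 0.129 TPM, and 2 reads in replicate 3. P0 replicates 2 and 3 had 22263624 and 21508833 reads in all, near the 23691028 of E14.5 replicate 2, but their size factors, which follow the typical miRNA, were 0.889 and 0.936 against 2.66. The mean was 17.3 ± 3.24 TPM at E14.5 against 1.49 ± 2.51 TPM at P0 (SD, n = 3). The log2 difference was −3.32 (SE 0.69, limma adjusted p = 0.00605) in TPM and −2.65 (SE 0.71, limma adjusted p = 0.0469) after scaling. In the authors' deposited table it was the only one of the 5 members with an adjusted p-value under 0.05, against 5.32% of all 1034 miRNAs lower at P0 by that rule. That table gave it a log2 difference of −5.52 (standard error 1.21) at an adjusted p of 0.000343. With a GC correction, which also set the libraries to a common level, the log2 difference was −1.61 (limma adjusted p = 0.0682), and limma-voom on the recovered reads with median-of-ratios factors gave a larger log2 difference of −4.24 at an adjusted p of 0.107. A pseudocount of 0.1 in place of 1 gave −5.29. Over 16 alternatives the limma adjusted p ran from 6.50e-05 to 0.107, with 14 below the threshold.

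miR-34b-3p came from the same hairpin. It had 19.3, 18.1 and 23.1 TPM at E14.5 and 4.63, 11.7 and 10.4 TPM at P0. In TPM the P0 libraries all lay below the E14.5 libraries, and the lowest was replicate 1, the library in which miR-34b-5p was highest among the P0 libraries. After scaling it had 12.6, 12.3 and 13.2 scaled TPM at E14.5 and 5.07, 23.2 and 18.9 at P0, so P0 replicates 2 and 3 were above and replicate 1 below the E14.5 libraries. Its log2 difference was −1.17 (SE 0.58, limma adjusted p = 0.125) in TPM, near the −1.20 of the typical miRNA, and 0.06 (SE 0.64, limma adjusted p = 0.946) after scaling.

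**Figure D2:**
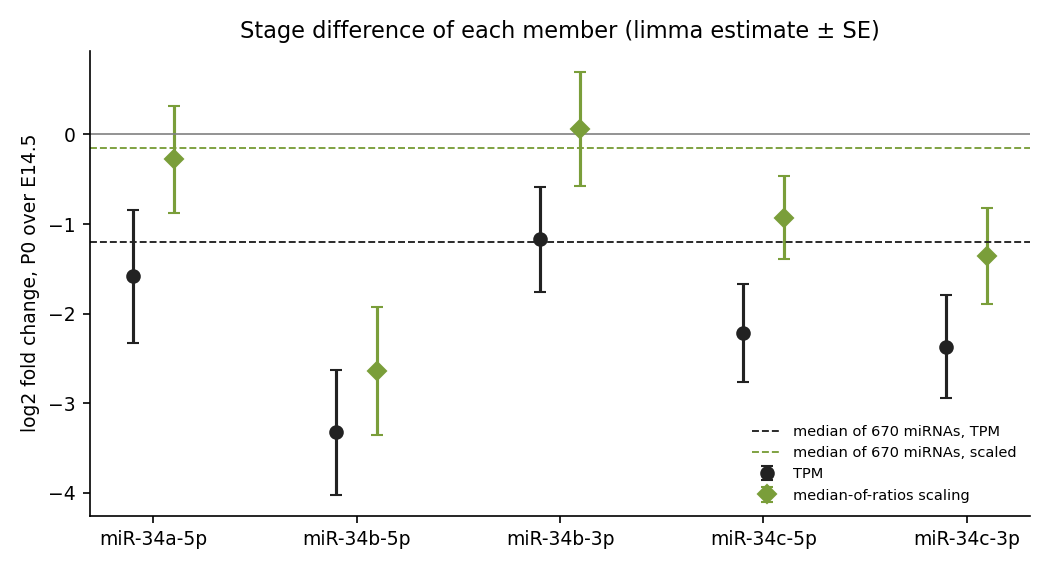
limma log2 difference of each member, P0 over E14.5, with its standard error, in TPM (circles) and after median-of-ratios scaling (diamonds), where dashed lines mark the median of the 670 tested miRNAs under each scaling. miR-34b-5p lies furthest below the median under both scalings, and miR-34b-3p lies near the median under both.

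The order of the levels within a stage was read per length. At E14.5 miR-34a-5p was above miR-34c-5p in every library, and miR-34c-5p above the remaining strands. miR-34b-3p, miR-34b-5p and miR-34c-3p, with means of 20.2, 17.3 and 13.1 TPM, overlapped in their spread. At P0 the order of means was miR-34a-5p, miR-34c-5p, miR-34b-3p (8.92 ± 3.77 TPM, SD, n = 3), miR-34c-3p and miR-34b-5p. In P0 replicates 2 and 3 miR-34b-3p was above miR-34c-3p and miR-34b-5p was the lowest, whereas in replicate 1 miR-34b-5p and miR-34b-3p were nearly equal and miR-34c-3p was the lowest.

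Reads of the same hairpin can be compared within a library, where the scaling cancels. The 5p strand took 51.9% (95% Wilson interval 42.5 to 61.2) of the Mir34b reads in E14.5 replicate 1, 44.2% (40.7 to 47.7) in replicate 2 and 45.4% (38.9 to 52.0) in replicate 3. In P0 replicate 1 it took 49.8% (44.4 to 55.3), inside the E14.5 range. It took 0% of 260 reads in P0 replicate 2, which allows up to 1.15%, and 0.885% (0.243 to 3.17) of 226 reads in P0 replicate 3. The arms of Mir34b were thus about equal in 4 libraries, and nearly all reads were 3p in the remaining 2. The log2 ratio of miR-34b-5p to miR-34b-3p was −0.22 ± 0.23 at E14.5 against −2.37 ± 2.01 at P0 (SD, n = 3). The difference of −2.15 did not pass an exact two-sided permutation test over libraries (p = 0.3; adjusted p = 0.8 over 4 ratios; the smallest possible p was 0.1). Without P0 replicate 1 the difference was −3.31, and with a pseudocount of 0.1 TPM in place of 1 it was −4.02.

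The Mir34c arms kept a 5p majority throughout. The 5p strand took 94.6%, 89.6% and 87.2% of the Mir34c reads at E14.5 and 92.8%, 96.0% and 93.8% at P0. The log2 ratio of its arms was 3.16 ± 0.66 at E14.5 against 3.31 ± 0.28 at P0 (SD, n = 3), a difference of 0.15 (exact two-sided permutation p = 0.8, adjusted p = 0.8). This difference turned to −0.11 without E14.5 replicate 3 and to −0.0068 without P0 replicate 2.

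**Figure D3:**
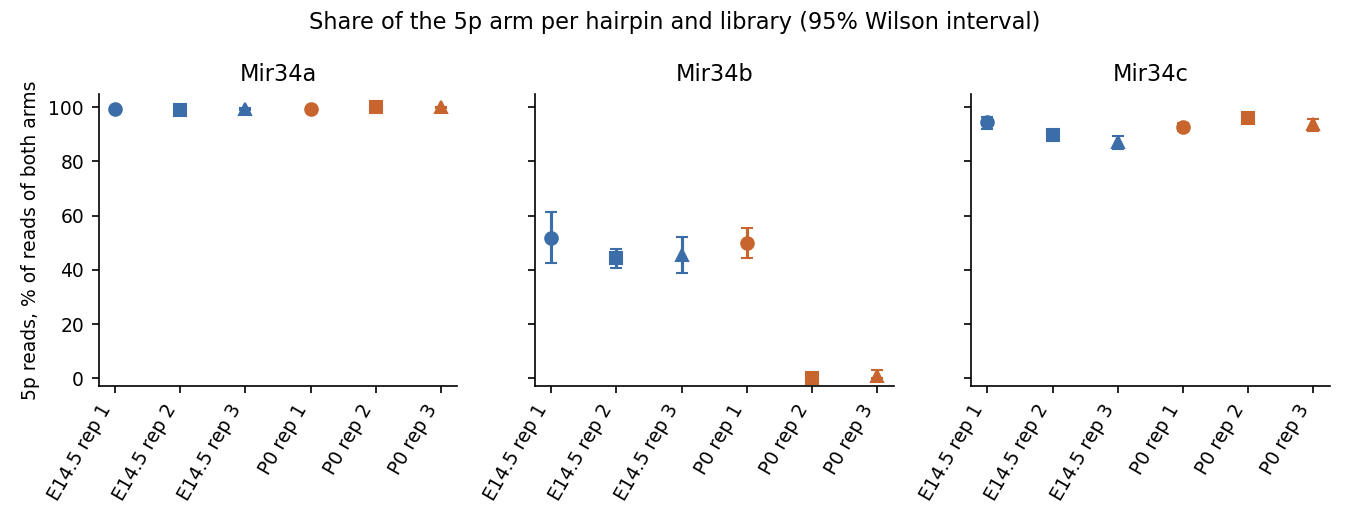
Share of 5p reads among the reads of both arms for Mir34a, Mir34b and Mir34c in each library, in percent, with 95% Wilson intervals that cover counting error only. Mir34b lies between 44.2% and 51.9% in 4 libraries and at 0% and 0.885% in P0 replicates 2 and 3, while Mir34a and Mir34c stay at 87.2% or above.

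miR-34b-5p was also compared with miR-34c-5p, the 5p strand of the neighbouring hairpin, a comparison chosen after its values were seen. Its reads were 15.0%, 13.1% and 15.0% of those of miR-34c-5p at E14.5, 13.4% in P0 replicate 1, 0% in P0 replicate 2 and 0.471% in P0 replicate 3. The loss in P0 replicates 2 and 3 was therefore seen against its partner strand and against the neighbouring hairpin. Summed over its arms, Mir34b had 39.2, 31.7 and 41.4 TPM at E14.5 and 9.02, 11.7 and 10.5 at P0. After scaling its stages overlapped, with 25.6, 21.5 and 23.7 scaled TPM at E14.5 and 9.87, 23.2 and 19.1 at P0. Mir34c had 141, 117 and 141 TPM at E14.5 and 35.4, 25.8 and 20.2 at P0. After scaling Mir34c had 91.9, 79.4 and 80.9 scaled TPM at E14.5 and 38.7, 51.0 and 36.7 at P0. The log2 ratio of Mir34c to Mir34b was 1.80 ± 0.05 at E14.5 against 1.27 ± 0.52 at P0 (SD, n = 3; exact two-sided permutation p = 0.4, adjusted p = 0.8). P0 replicate 1, at 1.86, lay with the E14.5 libraries, and P0 replicates 2 and 3 lay below them at 1.08 and 0.88.

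The change in the Mir34b arms was set beside that of other hairpins. Among 207 hairpins with both arms tested, the P0 minus E14.5 difference of log2(5p/3p) had a median of −0.01, with quartiles of −1.10 and 1.04. Arm balance thus moved by more than 1 on the log2 scale in many hairpins. For miR-34b, 13 hairpins, itself included, were at or below its value, and 36 had a difference at least as large in either direction. Its stages overlapped, through P0 replicate 1, while 17.9% of the hairpins had a lower 5p ratio at P0 without overlap. miR-34a (−0.31) and miR-34c (0.15) lay near the median.

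**Figure D4:**
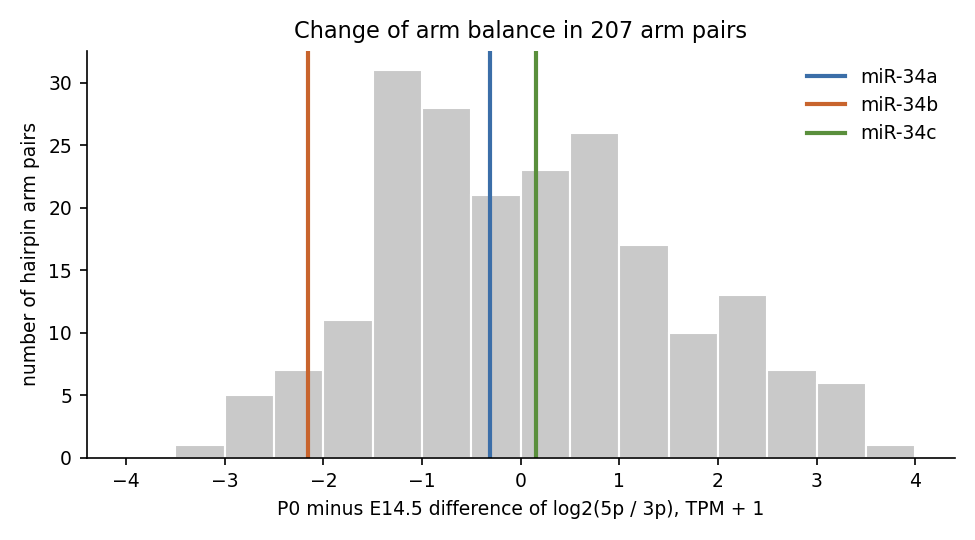
Histogram of the P0 minus E14.5 difference of log2(5p/3p), computed on TPM + 1, over 207 hairpins with both arms tested, with vertical lines at the miR-34 hairpins. miR-34b lies at −2.15 in the lower tail, while miR-34a and miR-34c lie near the centre.

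The mature sequences differed in base composition, which moved with the stage difference across the table. GC content was 39.1% in miR-34b-5p, 45.5% in miR-34b-3p, and 50% in miR-34a-5p and miR-34c-3p. Across 582 tested miRNAs with a sequence, which are not independent replicates and share the libraries, the log2 difference in TPM had a Pearson r of 0.386 with GC content. A per-library GC correction also set the libraries to a common level, so its values are given beside those after median-of-ratios scaling. The log2 differences were −1.61 for miR-34b-5p (−2.65 after scaling), 0.15 for miR-34b-3p (0.06), −1.29 for miR-34c-3p (−1.36) and −0.50 for miR-34a-5p (−0.28). None of the GC-corrected values passed the threshold (limma adjusted p of 0.0682, 0.893, 0.112 and 0.612).

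The 34a locus was compared with the 34b/c locus as a ratio within each library. miR-34a-5p was 2.18, 1.33 and 1.77 times the summed level of the 4 miR-34b/c strands in E14.5 replicates 1 to 3. The ratio was 7.74 in P0 replicate 1 and 1.262 and 1.80 in P0 replicates 2 and 3. P0 replicate 1 alone was outside the range of the other libraries, which were alike across the stages. The summed miR-34b/c level was 170.3 ± 18.9 TPM at E14.5 against 37.5 ± 6.86 TPM at P0 (SD, n = 3), with P0 replicate 1 at 44.4 TPM. In TPM, the high ratio of P0 replicate 1 came with a miR-34a-5p level within the range of the embryonic libraries. The log2 ratio was 0.78 ± 0.35 at E14.5 against 1.36 ± 1.38 at P0 (SD, n = 3), a difference of 0.58 (exact two-sided permutation p = 0.8, adjusted p = 0.8), and of −0.20 without P0 replicate 1.

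**Figure D5:**
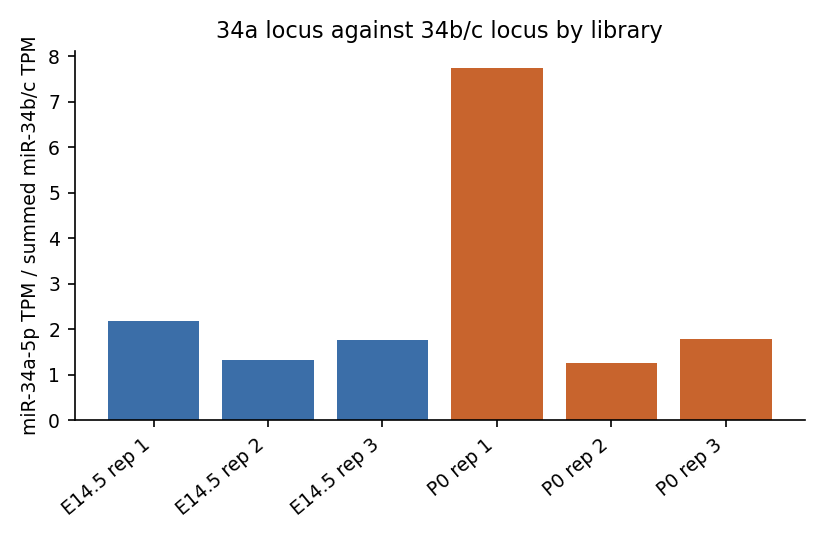
Ratio of miR-34a-5p to the summed miR-34b/c strands in TPM, 1 bar per library, E14.5 in blue and P0 in orange. The ratio is 7.74 in P0 replicate 1 and between 1.262 and 2.18 in the other 5 libraries.

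The miR-449 relatives, which lie in an intron of Cdc20b on chromosome 13 and carry the GGCAGUG seed, were present at low levels. miR-449a-5p had 24.99, 22.1 and 28.2 TPM at E14.5 and 28.8, 11.7 and 4.14 TPM at P0. In TPM P0 replicate 1 was just above the E14.5 libraries and the other P0 libraries were below them. After scaling it had 16.3, 15.0 and 16.1 scaled TPM at E14.5 and 31.5, 23.2 and 7.53 at P0, so P0 replicates 1 and 2 were above the E14.5 libraries and replicate 3 below. Its log2 difference was −1.06 (SE 0.68, limma adjusted p = 0.227) in TPM and 0.16 after scaling. Without P0 replicate 1 it was called lower in TPM, at −1.68 (limma adjusted p = 0.0167), where 53% of all tested miRNAs were called lower. With scaling and without that library it was −0.23 (limma adjusted p = 0.733). Over its alternatives the limma adjusted p ran from 0.0167 to 0.880. miR-449c-5p had 8, 41 and 3 reads at E14.5 and 53, 20 and 0 reads at P0. miR-449a-3p, the other strand of the miR-449a hairpin, had 59 reads in P0 replicate 1 and 0 reads in the other 5 libraries.

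By likeness of log2(TPM + 1) over the 6 libraries, among 431 miRNAs averaging 10 TPM or more, the closest miRNAs were listed for miR-34a-5p and miR-34c-5p. The 5 closest to miR-34a-5p were miR-30e-3p, miR-30b-5p, miR-340-5p, miR-26a-2-3p and miR-27a-3p, with Pearson r between 0.986 and 0.991. The 5 closest to miR-34c-5p were miR-18a-5p, miR-669p-5p, miR-181d-5p, miR-19b-1-5p and miR-451a, with r between 0.986 and 0.991. miR-34a-5p and miR-34c-5p had an r of 0.764 with each other. These values describe 6 libraries in which most miRNAs share the stage difference and the library totals.

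Other miRNAs linked to p53 were counted from lists chosen with earlier results of these data known. Of 11 miRNAs described as raised by p53, through transcription or processing, 10 were tested. In TPM 5 fell (miR-145a-5p, miR-15a-5p, miR-200c-3p, miR-141-3p and miR-22-3p) and 5 did not pass the threshold, against 32.8% of all tested miRNAs called lower. miR-143-3p and miR-145a-5p also stand among the stromal markers below, and miR-200c-3p and miR-141-3p among the epithelial ones. The median log2 difference of the 10 was −2.02 in TPM and −0.72 after scaling. After scaling none of the 10 was called lower and 1, miR-16-5p, was called higher, against 5.22% and 5.67% of all tested miRNAs. The most abundant of them were miR-16-5p, whose log2 difference was 0.40 in TPM (1.71 scaled), and miR-143-3p, at −1.21 (0.11 scaled). Of 5 miRNAs described as binding p53 mRNA, 1, miR-125a-5p, was called higher in TPM, against 1.34% of all tested miRNAs, from 7510.3 ± 2488 TPM at E14.5 to 18370 ± 3466 TPM at P0 (SD, n = 3), with a log2 difference of 1.32 and an adjusted p of 0.0356 in limma. After scaling 3 of the 5 were called higher, against 5.67% of all tested miRNAs, with miR-125b-5p (log2 difference 1.96) and miR-30d-5p (1.87) added. In TPM miR-125b-5p had a log2 difference of 0.64 (limma adjusted p = 0.291).

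Marker miRNAs of other cell types were counted in the same way, against 32.8% of all tested miRNAs called lower in TPM. The 5 miR-200 family markers of ureteric and tubule epithelium were all called lower, and their summed level was 4122 to 23183 TPM at E14.5 and 500.2 to 1542 TPM at P0. The 2 endothelial markers were also both called lower, at 26608 to 44921 TPM against 5634 to 8158 TPM. Of the 5 stromal markers 3 were called lower, at 83971 to 100537 TPM against 33349 to 45658 TPM. Of the 3 erythroid markers 1 was called lower, with sums of 220 to 375 TPM against 102.6 to 189 TPM. That one was miR-451a, while miR-486a-5p had a log2 difference of 0.76 (limma adjusted p = 0.363). None of the 4 leukocyte markers was called, at 632 to 1202 TPM against 454 to 629 TPM. Of the 2 neural markers 1, miR-9-5p, was tested and called lower, at 242 to 1573 TPM against 53.8 to 151 TPM. The other, miR-124-3p, had at most 0.286 TPM in any library and was not tested. Neither of the 2 miR-449 markers of multiciliated cells in the table was called. After scaling 3 of 5 epithelial and 1 of 2 endothelial markers were called lower, none of the stromal, erythroid or neural markers was called, and 1 leukocyte marker was called higher, against 5.22% of all tested miRNAs called lower and 5.67% higher. In P0 replicate 1 the endothelial, stromal, epithelial, erythroid, leukocyte and neural sums in TPM were below the lowest E14.5 library. In that library the leukocyte sum was only just below, at 629 against 632 TPM. Of the leukocyte markers, miR-142a-3p (273 TPM) and miR-150-5p (8.77 TPM) were below every E14.5 library there, whereas miR-223-3p (249 TPM) and miR-142a-5p (97.9 TPM) were above every one. The part of these cell types in the miR-34 differences was not tested.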

How the data were processed

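Small RNA was profiled in 6 libraries of mouse nephron progenitors, 3 per stage, prepared by a QIAseq miRNA protocol, per the labels. The authors deposited TPM per mature miRNA and sample, with a mean normalised signal, a log2 fold change and its standard error, a test score and p-values of their own comparison. The submitters' processing notes name featureCounts, DESeq2 1.26.0 and mm10. Trimming, aligner and molecular tags are not given in the sources used here. Multiplied by feature length (end less start), deposited TPM values fell on whole multiples of 1 step per library (100% of values, tolerance 0.0001), which gave the reads. Intervals and floors (3 reads) cover counting error only.

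Of 1104 rows, 1034 distinct names were kept, each by its most abundant row. In R 4.3.3, limma 3.58.1 (trended variance) was fitted to log2(TPM + 1) of 670 miRNAs averaging 1 TPM or more, with stage as the only term. P-values were adjusted by Benjamini-Hochberg over the 670 and called below 0.05. Fold changes on this scale understate the change of low miRNAs. Median-of-ratios scaling used size factors from 589 rows. Ratios within a library were compared by exact two-sided permutation tests (scipy 1.17.1), adjusted over 4. Their smallest possible p of 0.1 left no ratio able to pass 0.05. The fit was tested on simulated data with equal numbers of rises and falls and no outlying library. That test does not bear on the scaling or on P0 replicate 1. Named were all members, their other arm, the miR-449 relatives, the 5 miRNAs most correlated with miR-34a-5p and with miR-34c-5p, and, with values, the 2 most abundant of each p53 list. Other called list members and some cell type markers were named after their values were seen. The members and lists were chosen with earlier results of these data known.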

Additional observations from a re-analysis of the deposited data

How the results depend on the processing

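The count of miRNAs called in TPM was 229. It was 73 with median-of-ratios scaling, 68 with upper-quartile scaling, 28 with limma-voom on the recovered reads with median-of-ratios factors, 79 with the replicate block and median-of-ratios scaling, 64 with the GC correction (582 miRNAs tested, libraries also set to a common level), 326 with scaling without P0 replicate 1, and 72 to 420 on leaving out single libraries, the highest without P0 replicate 1 and the lowest without E14.5 replicate 3, with 111, 115 and 134 without E14.5 replicate 1, P0 replicate 2 and P0 replicate 3. The cause of the changes below was not tested. For miR-34c-5p, the log2 fold change no longer passed at −0.93 with median-of-ratios scaling, −0.81 with upper-quartile scaling, −0.96 in limma-voom, −0.93 with the block and scaling, and −0.87 with scaling without P0 replicate 1, and leaving out each library gave −2.41 to −2.03. For miR-34c-3p it no longer passed at −1.36, −1.27, −1.72 and −1.36 in the first 4 of these settings and at −1.29 with the GC correction, passed at −1.45 with scaling without P0 replicate 1, and leaving out each library gave −2.66 to −2.09. For miR-34b-5p it no longer passed at −4.24 in limma-voom and −1.61 with the GC correction, and it was −5.29 with a pseudocount of 0.1. miR-34b-3p, never called, turned positive at 0.061 with median-of-ratios scaling, 0.17 with upper-quartile scaling, 0.061 with the block and scaling, 0.15 with the GC correction and 0.68 with scaling without P0 replicate 1. miR-34a-5p passed without P0 replicate 1 in TPM, at −2.49, and not with scaling as well, at −0.93, in a TPM range of −2.49 to −1.08 over the libraries left out. The 34a to 34b/c ratio difference ran from −0.20 (without P0 replicate 1) to 1.09, and that of the miR-34c arms from −0.11 (without E14.5 replicate 3) to 0.52, with −0.0068 without P0 replicate 2. The miR-34b arm difference was −4.02 with a pseudocount of 0.1 and −4.59 on reads plus 1, and that of the miR-34c arms 0.65 and 0.72. The GC correction and the scaling without P0 replicate 1 were chosen after seeing the data, and miR-34c-5p had no value in the first.

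Same-numbered samples were different litters, so the numbers were not taken as pairing. The correlations of their deviations from the stage means were 0.193, 0.183 and 0.0423 for replicates 1, 2 and 3. Between different numbers the correlations ran from −0.182 to 0.0770. Every library correlated best with its own number except P0 replicate 3, whose highest was 0.0770 with E14.5 replicate 2. The replicate block in TPM gave 247 calls and changed no member's call, with log2 fold changes of −1.58, −3.32, −1.17, −2.22 and −2.37 for miR-34a-5p, miR-34b-5p, miR-34b-3p, miR-34c-5p and miR-34c-3p. With a filter at 10 TPM, miR-34b-5p and miR-34c-3p were not tested. The quasi-likelihood count test was not run. Some values rest on few reads, with 21 reads of miR-34c-3p in E14.5 replicate 1 and 0 and 2 reads of miR-34b-5p in P0 replicates 2 and 3. E14.5 replicate 1 was the shallowest library, with 2649506 reads in all and 55 of miR-34b-5p. P0 replicates 2 and 3 had 22263624 and 21508833 reads in all.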
